A study of Mus musculus with 25 samples.

Results

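The 43 genes described here had their lowest log2 intensity 12 hours after partial hepatectomy (PHx) in mouse liver and had regained part or all of it by 72 hours. They were chosen on these same arrays, among 1170 genes named on 1257 mRNA probes in the rows at hand of the study's list of differentially expressed transcripts. A probe was kept where its mean log2 intensity over the 5 arrays at 12 hours was at least 1 below the sham mean and the mean at 72 hours was at least 0.5 above that at 12 hours. Of 50 probes past both thresholds, 5 were dropped because their genes (cytochrome P450, solute carrier, kinesin and centromere protein families and a few single names) were set aside, and the 45 left belong to 43 genes, each shown by its brightest such probe. The values at 12 hours against sham, 72 hours against 12 hours and 72 hours against sham therefore set the membership and are given as a description, without a test.

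Male Balb/c mice, 8 weeks old by the labels, underwent sham surgery or removal of 2/3 of the liver, which is PHx. Total RNA of 1 liver was hybridised to each single-colour (Cy3) array, with 5 arrays from sham livers, taken 4 hours after surgery by the labels, and 5 each from livers of mice with PHx, taken after 4, 12, 36 or 72 hours. The labels name no genetic change and no drug. At 12, 36 and 72 hours PHx cannot be told apart from the hours since surgery, since every sham liver was taken at 4 hours, and whether the livers were matched for time of day was not stated in any source used. As whole liver RNA was measured, fewer cells of a type and less RNA per cell cannot be told apart, and a level is relative to the rest of the array, whose median intensity lay between 97.7 and 102.7 on all 25 arrays.

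After PHx, resting hepatocytes leave quiescence, pass through a priming phase of early gene induction, and enter S phase in a fairly synchronous wave while the remnant liver keeps up its metabolic work. Growth factor receptors such as Met carry the proliferative signal, and ubiquitin ligases tag proteins, often for breakdown. Many enzyme genes of the resting liver are known to be expressed at a lower level while the tissue regrows.

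Averaged over the 43 genes, log2 intensity was 10.03 ± 0.10 in sham livers, 9.45 ± 0.11 at 4 hours, 8.50 ± 0.16 at 12 hours, 9.21 ± 0.15 at 36 hours and 9.51 ± 0.09 at 72 hours (mean ± SD, n = 5 arrays each). The 5 arrays at 12 hours ranged between 8.29 and 8.73 and lay below every other array. Replicate 4 at 12 hours was the lowest array of its group for 20 of the genes, and replicate 1 the highest for 25. At 36 hours, replicate 4 was the highest for 22. All 43 genes had their lowest group mean at 12 hours, which the choice of genes requires against sham and 72 hours. The 36 h mean was less than 0.1 above the 12 h mean for Enpp2 (0.004) and Klhl21 (0.03). Their lowest time is thus not settled between 12 and 36 hours. The 12 h and 36 h arrays overlapped for most of the 43 genes. The highest group mean was in sham livers for 37, at 72 hours for 4, at 36 hours for Gins1 and at 4 hours for Enpp2.

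**Figure D1:**
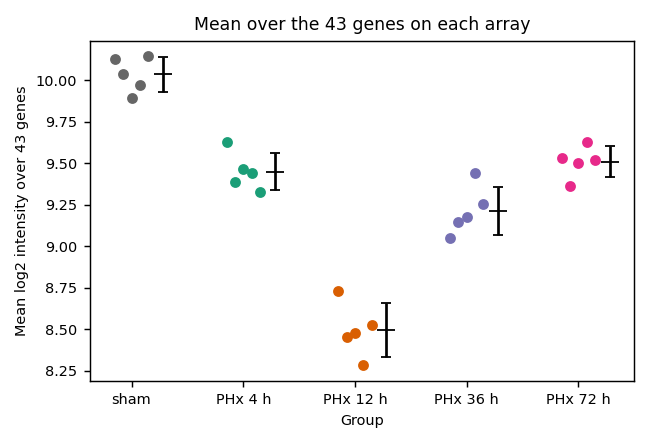
Mean log2 intensity over the 43 genes (vertical axis) on each of 25 arrays, by group in order of time; points are arrays and the black mark beside them is the mean with its SD (n = 5). The 12 h arrays lie between 8.29 and 8.73, below all arrays of the other groups.

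The difference of the 12 h mean from the sham mean had a median of -1.33 and ran between -2.94 for Sntg2 and -1.01 for Sos1, on the log2 scale. It was -2 or lower for 10 genes. All 5 arrays at 12 hours lay below all 5 sham arrays for all 43 genes, a pattern found for 9.79% of the 35979 probes on the array and one that the choice of genes favours. All 5 lay below all 5 arrays at 72 hours for 32 genes (11.6% of all probes), below all at 4 hours for 30 (10% of all probes) and below all at 36 hours for 16 (10.1% of all probes). The choice of genes on low 12 h values favours these counts too, so nothing is read from them. Next to the threshold on the 12 h difference, Sos1 (-1.01), Aldh1b1 (-1.03) and Papd4 (-1.03) lay just inside, and Rnf169 (-0.98), Ppp1r15b (-0.96) and Snx2 (-0.94) just outside. Next to the threshold on the later rise, Mosc2 (0.50), Rpain (0.51) and Fxyd1 (0.51) lay just inside, and Maf (0.49), Scrn3 (0.45) and Ctage5 (0.44) just outside.

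**Figure D2:**
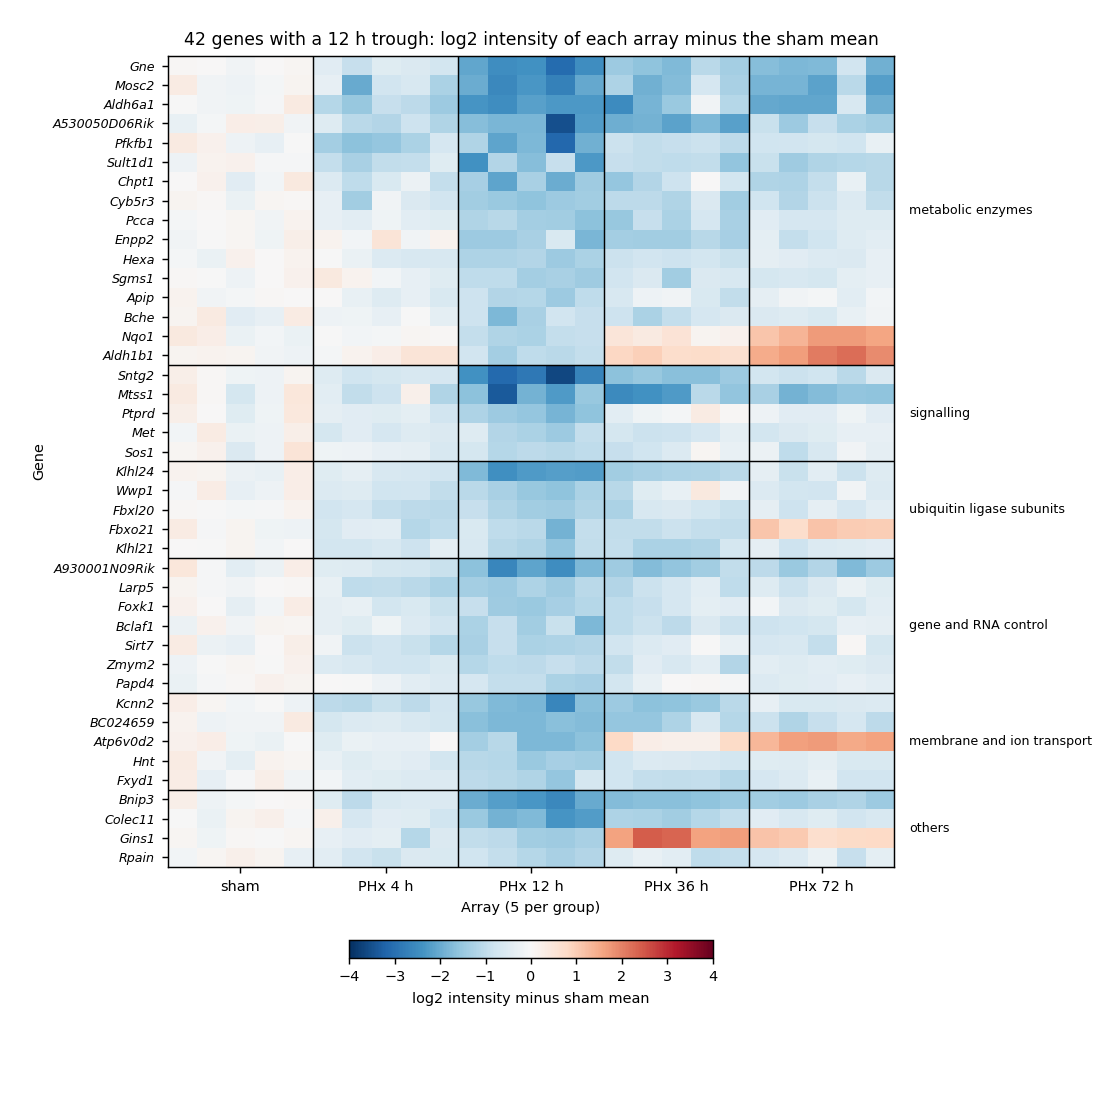
Log2 intensity of each array minus the gene's sham mean, for 42 of the 43 genes (rows, grouped by role) and 25 arrays (columns, 5 per group in order of time); blue is below and red above the sham mean. The 12 h columns are the bluest for most genes, and Nqo1, Aldh1b1, Fbxo21, Atp6v0d2 and Gins1 are red at 72 hours.

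The values at 4 and 36 hours did not set the membership. PHx at 4 hours and at 36 hours were each compared with sham, and these share the sham arrays with the choice of genes. PHx at 36 hours was also compared with PHx at 4 hours, where neither group was used in that choice, although the study itself had picked these named probes for their change on all arrays. The test was that of limma, fitted to the 5 group means of 35979 probes at once, and a gene was called at a Benjamini-Hochberg adjusted p under 0.05 over all probes.

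At 4 hours after PHx, 31 of the 43 genes were already lower than in sham livers, among 6.35% of all probes called lower. None was called higher by limma, where 6.12% of all probes were, and none was higher at an unadjusted p under 0.05 or by the methods' t-test. All 5 arrays at 4 hours lay below all 5 sham arrays for 23 genes (4.96% of all probes). The median difference was -0.63, against 0.00 over all probes. The 4 h difference amounted to a median of 36.9% of the 12 h difference and to at least 50% of it in 14 genes. At 36 hours 34 genes were lower than in sham livers (12.5% of all probes) and 3 were higher (13.6% of all probes), with a median difference of -0.87 against -0.01 over all probes. Between 12 and 36 hours a median of 36.9% of the 12 h difference had been regained, and by 72 hours a median of 54.5%.

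Set directly against 4 hours, 36 hours was lower for 17 of the 43 genes, or 39.5%, where 11.5% of all probes were lower. It was higher for 4, or 9.3%, where 12.7% of all probes were. The other 22 did not pass. Nqo1 (0.35, limma adjusted p = 0.05002) and Bclaf1 (-0.41, limma adjusted p = 0.05006) lay next to the threshold. Both passed in several other settings, such as with the dimmest 30% of probes left out (limma adjusted p of 0.0372 and 0.0361). The median difference was -0.21, against -0.01 over all probes. For comparison, 71 other named genes were at least 1 lower at 12 hours than in sham livers but did not meet the later rise, and of these 31 (43.7%) were lower and 1 (1.41%) was higher at 36 hours than at 4 hours. The difference between the 2 sets of genes was not tested.

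**Figure D3:**
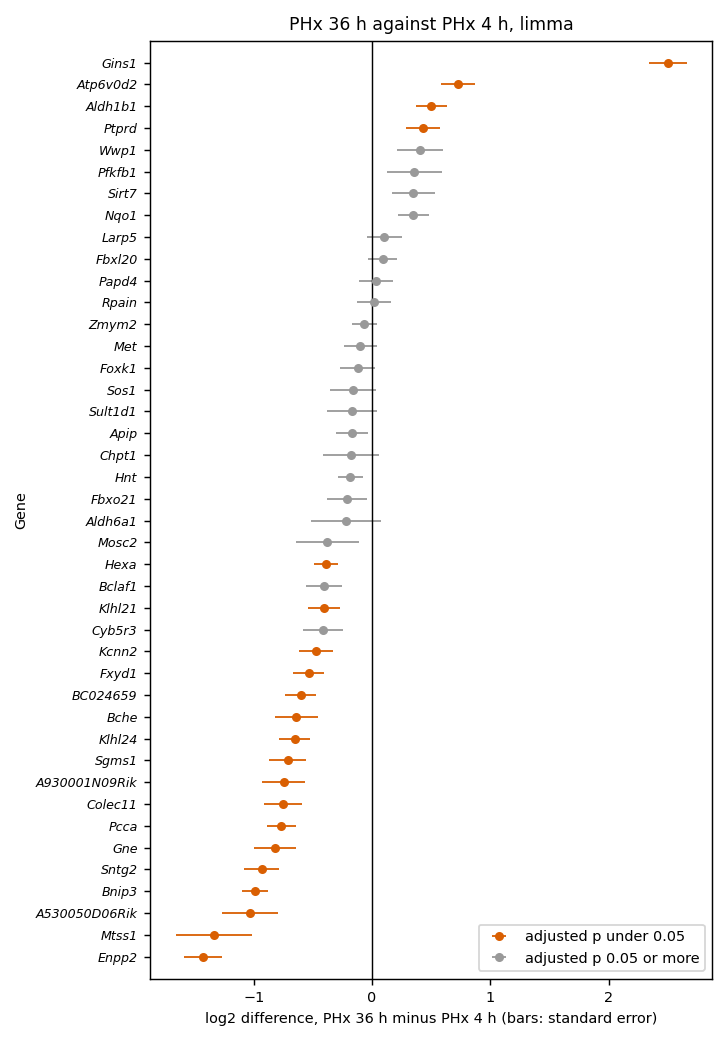
Log2 difference between PHx 36 h and PHx 4 h (horizontal axis, 36 h minus 4 h) for 42 of the 43 genes (rows), with bars for the standard error from limma; orange points have an adjusted p under 0.05. Enpp2 (-1.43) and Gins1 (2.50) mark the ends, with 17 genes lower and 4 higher.

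Of 16 metabolic enzymes, 9 were lower at 4 hours than in sham livers and none was higher. Of the 43 genes 72.1% were lower then, and of all probes 6.35%. No role was tested against the rest of the set. At 36 hours 14 enzymes were lower than in sham livers (79.1% of the 43 genes, 12.5% of all probes) and 1, Aldh1b1, was higher. Their 12 h differences ran between -2.51 and -1.03. Gne, which makes the sialic acid precursor N-acetylmannosamine, had the lowest of them. At 36 hours 7 of the 16 were lower than at 4 hours (39.5% of the 43 genes, 11.5% of all probes).

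Gne had log2 intensities of 9.47, 9.42, 9.28, 9.42 and 9.49 on the 5 sham arrays, 8.96, 8.50, 8.93, 8.83 and 8.68 at 4 hours and 7.35, 6.93, 7.002, 6.34 and 6.92 at 12 hours. At 36 hours Gne stood at 7.96, 7.80, 7.66, 8.33 and 8.06, and at 72 hours at 7.72, 7.61, 7.65, 8.64 and 7.48. Its 5 arrays at 12 hours lay below all other arrays, and those at 4 hours below all sham arrays. At 36 hours Gne was lower than at 4 hours with a log2 difference of -0.82 (SE 0.18, limma adjusted p = 0.000998), and at 4 hours it was lower than in sham livers with a log2 difference of -0.63 (SE 0.18, limma adjusted p = 0.0191). Without replicate 2 at 4 hours the comparison with sham livers had a limma adjusted p of 0.0545. Pfkfb1 had log2 intensities of 12.41, 12.23, 11.85, 11.72 and 12.04 on the 5 sham arrays, 10.71, 10.42, 10.49, 10.78 and 11.39 at 4 hours and 10.85, 9.93, 10.25, 8.91 and 10.12 at 12 hours. At 36 hours Pfkfb1 stood at 11.20, 11.07, 11.12, 11.18 and 11.02, and at 72 hours at 11.24, 11.30, 11.34, 11.24 and 11.76. Pfkfb1 encodes the liver enzyme that makes and breaks down fructose 2,6-bisphosphate, the switch between glycolysis and gluconeogenesis. The arrays at 4 and 12 hours overlapped, with replicate 4 at 12 hours the lowest of all 25. Its level was lower at 4 hours than in sham livers with a log2 difference of -1.29 (SE 0.23, limma adjusted p = 0.000403), the largest fall at 4 hours among the 43 genes. At 36 hours it was lower than in sham livers with a log2 difference of -0.94 (SE 0.23, limma adjusted p = 0.00313).

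Enzymes of branched-chain and propionate breakdown were in the set. Aldh6a1, the mitochondrial methylmalonate semialdehyde dehydrogenase of valine breakdown, had log2 intensities of 10.86 ± 0.21 in sham livers, 9.65 ± 0.26 at 4 hours, 8.54 ± 0.11 at 12 hours, 9.43 ± 0.89 at 36 hours and 9.10 ± 0.62 at 72 hours (mean ± SD, n = 5 each). Its SD at 36 hours came from arrays between 8.34 and 10.72, and its mean at 72 hours included replicate 4 at 10.21 beside 4 arrays between 8.78 and 8.90. Without that replicate its rise between 12 and 72 hours was 0.28 in place of 0.56, and it would not be among the 43 genes. Pcca, the alpha subunit of propionyl-CoA carboxylase, was lower at 36 hours than at 4 hours with a log2 difference of -0.77 (SE 0.12, limma adjusted p = 1.89e-05). Mosc2 (now Mtarc2), a mitochondrial amidoxime-reducing enzyme, had the smallest share regained at 72 hours, 21.6%, and without the same replicate its later rise was 0.32 in place of 0.50.

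Enpp2 is autotaxin, the secreted enzyme that makes lysophosphatidic acid. Enpp2 had log2 intensities of 11.69, 11.81, 11.91, 11.66 and 12.06 on the 5 sham arrays, 11.96, 11.72, 12.33, 11.68 and 11.96 at 4 hours and 10.36, 10.38, 10.52, 11.21 and 10.01 at 12 hours. At 36 hours Enpp2 stood at 10.47, 10.43, 10.42, 10.70 and 10.49, and at 72 hours at 11.45, 10.88, 11.02, 11.32 and 11.39. Its arrays at 4 hours overlapped those of sham livers, and the 36 h arrays overlapped those at 12 hours, so its low values spanned both times. The 4 h difference from sham livers was 0.10 (limma adjusted p = 0.789). Enpp2 had the largest fall of the 43 genes between 4 and 36 hours, a log2 difference of -1.43 (SE 0.16, limma adjusted p = 1.7e-07). Sgms1, which makes sphingomyelin, had a 4 h difference of -0.08 (limma adjusted p = 0.847) and was lower at 36 hours than at 4 hours with a log2 difference of -0.71 (SE 0.15, limma adjusted p = 0.00093). Chpt1, of phosphatidylcholine synthesis, had a 4 h difference of -0.68 that did not pass (limma adjusted p = 0.0657) and was lower than in sham livers at 36 hours, with a difference of -0.86 (limma adjusted p = 0.00816).

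A530050D06Rik (now Aspg), an asparaginase, was lower at 36 hours than at 4 hours with a log2 difference of -1.03 (SE 0.23, limma adjusted p = 0.00147). Hexa, the lysosomal hexosaminidase alpha subunit, and Bche, the secreted butyrylcholinesterase, were also lower at 36 than at 4 hours, with differences of -0.39 and -0.64 (limma adjusted p of 0.0046 and 0.00921). Sult1d1, a sulfotransferase, Cyb5r3, a cytochrome b5 reductase, and Apip, of the methionine salvage pathway, did not pass in that comparison. Sult1d1 averaged 12.74 ± 0.65 at 12 hours, against 14.44 ± 0.15 in sham livers (SD, n = 5 each). At 4 hours Cyb5r3 was lower than in sham livers (-0.64, limma adjusted p = 0.0129), and Apip did not pass (-0.35, limma adjusted p = 0.114).

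Nqo1 and Aldh1b1 ended above the sham level. Nqo1 is a quinone reductase known as a target of the oxidative stress regulator Nrf2. Nqo1 had log2 intensities of 9.69, 9.58, 9.04, 9.18 and 9.03 on the 5 sham arrays, 9.28, 9.20, 9.22, 9.37 and 9.34 at 4 hours and 8.35, 8.10, 8.04, 8.36 and 8.37 at 12 hours. At 36 hours Nqo1 stood at 9.80, 9.66, 9.84, 9.40 and 9.46, and at 72 hours at 10.41, 10.65, 11.01, 10.99 and 10.87. The 12 h arrays lay below all others and the 72 h arrays above all others. At 4 hours its difference from sham livers was -0.02 (limma adjusted p = 0.958), and at 36 hours 0.33 (limma adjusted p = 0.0634). Aldh1b1, a mitochondrial aldehyde dehydrogenase, had 8.91 ± 0.22 at 12 hours and 11.82 ± 0.30 at 72 hours, with 9.94 ± 0.16 in sham livers (mean ± SD, n = 5 each). It was higher at 36 hours than in sham livers with a log2 difference of 0.77 (SE 0.13, limma adjusted p = 6.95e-05), and higher than at 4 hours with a log2 difference of 0.50 (SE 0.13, limma adjusted p = 0.00561). Its arrays at 36 and 72 hours lay above every sham array.

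Of 6 genes of signalling, 4 were lower than in sham livers at 4 hours (6.35% of all probes) and 4 at 36 hours (12.5% of all probes). Sntg2, a syntrophin that links membrane proteins to the dystrophin complex, had the lowest 12 h difference of the 43 genes. Sntg2 had log2 intensities of 11.06, 10.88, 10.64, 10.61 and 10.93 on the 5 sham arrays, 10.31, 10.02, 10.13, 10.20 and 10.16 at 4 hours and 8.40, 7.73, 7.95, 7.18 and 8.17 at 12 hours. At 36 hours Sntg2 stood at 9.17, 9.31, 9.15, 9.15 and 9.37, and at 72 hours at 10.08, 9.97, 10.03, 9.74 and 10.26. No array of one group overlapped another among sham, 4, 12 and 36 hours, and 72.4% of the 12 h difference had been regained at 72 hours. Sntg2 was lower at 36 hours than at 4 hours with a log2 difference of -0.93 (SE 0.15, limma adjusted p = 2.6e-05).

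Mtss1 binds actin and bends membranes. Mtss1 had log2 intensities of 10.84, 10.52, 9.76, 10.26 and 10.93 on the 5 sham arrays, 10.03, 9.49, 9.65, 10.68 and 9.27 at 4 hours and 8.81, 7.09, 8.56, 8.19 and 8.94 at 12 hours. At 36 hours Mtss1 stood at 7.93, 8.04, 8.19, 9.37 and 8.89, and at 72 hours at 9.17, 8.58, 8.73, 8.88 and 8.85. Its 4 h arrays spread over more than 1 log2 unit and overlapped those of sham livers (limma adjusted p = 0.239). The 12 h and 36 h arrays overlapped. Mtss1 was lower at 36 hours than at 4 hours with a log2 difference of -1.34 (SE 0.32, limma adjusted p = 0.00255). Without replicate 2 at 12 hours, the lowest of its group, the difference between 72 and 12 hours was 0.22 in place of 0.53.

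Met, the receptor for hepatocyte growth factor, and Sos1, a Ras activator downstream of such receptors, lay on the shallow side of the set. Met had log2 intensities of 8.37, 8.82, 8.21, 8.26 and 8.72 on the 5 sham arrays, 7.77, 8.01, 7.81, 7.96 and 7.88 at 4 hours and 7.95, 7.30, 7.22, 7.03 and 7.54 at 12 hours. At 36 hours Met stood at 7.77, 7.62, 7.65, 7.81 and 8.08, and at 72 hours at 7.73, 7.89, 7.99, 8.16 and 8.14. The 12 h arrays of Met overlapped those at 4, 36 and 72 hours but not those of sham livers. Met was lower at 4 hours than in sham livers with a log2 difference of -0.59 (SE 0.14, limma adjusted p = 0.00577), and at 36 hours with a log2 difference of -0.69 (SE 0.14, limma adjusted p = 0.000516). Sos1 did not pass at 4 hours (-0.34, limma adjusted p = 0.313) or at 36 hours (-0.50, limma adjusted p = 0.0582). The 36 h value lay near the threshold and passed after quantile normalization (limma adjusted p = 0.0409), with normexp background correction (limma adjusted p = 0.0480) and with the dimmest 30% of probes left out (limma adjusted p = 0.0415). A second probe of Sos1 was lower at 36 hours than in sham livers, with a difference of -0.48 (limma adjusted p = 0.00129). Its 12 h difference of -0.84 and later rise of 0.25 were short of both thresholds.

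The promoter of Met, 250 bases before to 50 after its RefSeq start, is shown because it holds an E-box, the motif CACGTG through which the clock activators and related factors bind, printed in capitals. It lies at chr6:17463707-17464006 on the plus strand of GRCm38.p6, and the motif's first base is at position -126 from that start. The E-box was in 6.67% of the promoters found for the set and in 7.15% of all promoters.
Met: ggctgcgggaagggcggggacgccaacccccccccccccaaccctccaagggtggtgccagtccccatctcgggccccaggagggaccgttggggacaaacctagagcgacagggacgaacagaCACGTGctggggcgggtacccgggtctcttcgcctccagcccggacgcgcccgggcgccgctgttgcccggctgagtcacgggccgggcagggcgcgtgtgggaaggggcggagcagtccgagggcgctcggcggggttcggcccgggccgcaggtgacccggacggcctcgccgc

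Ptprd, a receptor tyrosine phosphatase, was higher at 36 hours than at 4 hours with a log2 difference of 0.43 (SE 0.14, limma adjusted p = 0.0308). Its 36 h mean was 7.35 ± 0.27, against 7.41 ± 0.35 in sham livers (SD, n = 5 each), a difference of -0.06 (limma adjusted p = 0.844). At 12 hours it was as dim as the lower 13.8% of all probes. Leaving out any 1 of 5 arrays (replicate 3 or 5 at 4 hours, replicate 3, 4 or 5 at 36 hours) lost the call at 36 against 4 hours, with limma adjusted p between 0.0529 and 0.115.

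All 5 ubiquitin ligases and ligase subunits were lower at 4 hours than in sham livers, and 4 of them at 36 hours. Lower at 4 hours were 72.1% of the 43 genes and 6.35% of all probes, and at 36 hours 79.1% and 12.5%. The Kelch proteins Klhl24 and Klhl21 and the F-box proteins Fbxl20 and Fbxo21 bring substrates to cullin ligases, and Wwp1 is a ligase of the HECT type. Klhl24 was the deepest at 12 hours. Klhl24 had log2 intensities of 9.30, 9.27, 8.93, 8.85 and 9.42 on the 5 sham arrays, 8.67, 8.79, 8.52, 8.48 and 8.39 at 4 hours and 7.39, 6.69, 6.88, 6.97 and 6.92 at 12 hours. At 36 hours Klhl24 stood at 7.76, 7.87, 7.91, 7.97 and 8.07, and at 72 hours at 8.78, 8.26, 8.74, 8.29 and 8.63. The 12 h arrays of Klhl24 lay below all others and the sham arrays above all others. It was lower at 36 hours than at 4 hours with a log2 difference of -0.65 (SE 0.13, limma adjusted p = 0.00035).

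Fbxo21 had log2 intensities of 9.40, 9.02, 9.20, 8.92 and 8.88 on the 5 sham arrays, 8.39, 8.64, 8.67, 7.93 and 8.06 at 4 hours and 8.48, 8.08, 7.99, 7.19 and 8.14 at 12 hours. At 36 hours Fbxo21 stood at 8.09, 8.11, 8.22, 8.13 and 8.09, and at 72 hours at 10.20, 9.77, 10.24, 10.11 and 10.06. At 4, 12 and 36 hours Fbxo21 stayed low with overlapping arrays, and at 72 hours all 5 arrays lay above every sham array. It had regained 13.7% of the 12 h difference at 36 hours and 190% at 72 hours. At 36 hours it was lower than in sham livers with a log2 difference of -0.95 (SE 0.17, limma adjusted p = 0.000129). Fbxl20 had the largest share of its 12 h difference in place at 4 hours, 74%, and was lower then with a log2 difference of -0.91 (SE 0.12, limma adjusted p = 1.52e-05). Klhl21 was lower at 36 hours than at 4 hours, with a difference of -0.41 (limma adjusted p = 0.0256). Leaving out replicate 5 at 4 hours or replicate 2, 3 or 4 at 36 hours gave limma adjusted p between 0.0645 and 0.0877, and a second Klhl21 probe did not pass (-0.23, limma adjusted p = 0.251). Wwp1 was lower at 4 hours (-0.73, limma adjusted p = 0.0121) and did not pass at 36 hours (-0.32, limma adjusted p = 0.259). A list of ubiquitin ligases, proteasome subunits and deubiquitinases held 42 genes, with these 5 included. Of them, 30 were lower than in sham livers at 4 hours and 35 at 36 hours, with none higher at either time by limma. The shares of all probes were 6.35% lower and 6.12% higher at 4 hours, and 12.5% and 13.6% at 36 hours. At 36 hours against 4 hours 14 of the list were lower and 5 higher (11.5% and 12.7% of all probes). The list came from named genes that the study had picked on these arrays. Its counts are thus not independent evidence of a direction.

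Of 7 members that act on genes or RNA, 6 were lower at 4 hours (6.35% of all probes) and 5 at 36 hours (12.5% of all probes) than in sham livers. A930001N09Rik, now Crebrf, is a regulator of the stress factor Creb3. A930001N09Rik had log2 intensities of 10.02, 9.51, 9.14, 9.34 and 9.83 on the 5 sham arrays, 9.08, 9.04, 8.86, 8.85 and 8.67 at 4 hours and 7.93, 6.97, 7.47, 7.10 and 7.77 at 12 hours. At 36 hours A930001N09Rik stood at 8.16, 7.83, 8.001, 8.19 and 8.59, and at 72 hours at 8.53, 8.09, 8.40, 7.79 and 8.12. The arrays at 4 hours lay below all sham arrays, and those at 12 and 72 hours overlapped. It was lower at 36 hours than at 4 hours with a log2 difference of -0.75 (SE 0.18, limma adjusted p = 0.00322). Its promoter is the only one among those found for the set with a pair of E-boxes, in capitals, whose first bases lie at positions -125 and -14 from the RefSeq start. The stretch is chr17:26715400-26715699 on the plus strand of GRCm38.p6.
A930001N09Rik (Crebrf): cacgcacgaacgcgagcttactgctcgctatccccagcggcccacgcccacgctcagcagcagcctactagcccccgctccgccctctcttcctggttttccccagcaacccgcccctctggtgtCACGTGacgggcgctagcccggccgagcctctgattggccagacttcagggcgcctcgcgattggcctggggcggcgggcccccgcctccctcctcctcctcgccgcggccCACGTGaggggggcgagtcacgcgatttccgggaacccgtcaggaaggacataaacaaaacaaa

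Foxk1, a forkhead repressor, Bclaf1, a splicing and transcription factor, Sirt7, a nucleolar deacylase, Zmym2, a zinc finger cofactor, and Larp5 (now Larp4b), an RNA-binding protein, were lower at 4 hours than in sham livers. Their 4 h differences lay between -0.93 for Larp5 (limma adjusted p = 0.000119) and -0.46 for Bclaf1 (limma adjusted p = 0.0428). The call for Bclaf1 was lost on leaving out any 1 of 7 arrays, with limma adjusted p between 0.0501 and 0.137. Sirt7 did not pass at 36 hours (-0.41, limma adjusted p = 0.101). Papd4 (now Tent2), a poly(A) polymerase, passed at neither time, with -0.23 at 4 hours and -0.20 at 36 hours (limma adjusted p of 0.361 and 0.367).

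Among 5 genes of membranes and ion transport, Kcnn2, a small-conductance calcium-activated potassium channel, was measured by a pair of probes that both met the thresholds. Kcnn2 had log2 intensities of 11.50, 11.30, 11.14, 11.22 and 11.03 on the 5 sham arrays, 10.20, 10.14, 10.33, 10.18 and 10.47 at 4 hours and 9.73, 9.46, 9.42, 8.64 and 9.58 at 12 hours. At 36 hours Kcnn2 stood at 9.79, 9.61, 9.62, 9.76 and 10.17, and at 72 hours at 10.91, 10.63, 10.64, 10.67 and 10.68. The 12 h arrays were below all sham, 4 h and 72 h arrays, with replicate 4 the lowest, and overlapped those at 36 hours. Its other probe had a 12 h difference of -1.52 and a later rise of 1.09. At 36 hours both probes were lower than at 4 hours, with differences of -0.48 and -0.52 (limma adjusted p of 0.0171 and 0.0207). For the probe shown, leaving out replicate 5 at 4 hours or replicate 2 at 36 hours gave limma adjusted p between 0.0509 and 0.0523. BC024659 (now Smim13), a small membrane protein, and Fxyd1, a regulator of the sodium pump, were also lower at 36 than at 4 hours, with differences of -0.60 and -0.54 (limma adjusted p of 0.00105 and 0.00336). Hnt (now Ntm), a cell adhesion protein, was lower than in sham livers at 4 hours (-0.48, limma adjusted p = 0.00336) and at 36 hours (-0.66, limma adjusted p = 3.08e-05) but did not pass between them.

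Atp6v0d2, a subunit of the proton pump that acidifies endosomes and lysosomes, was lowest at 12 hours and highest at 72 hours. Atp6v0d2 had log2 intensities of 7.52, 7.65, 7.20, 7.10 and 7.36 on the 5 sham arrays, 6.88, 7.09, 7.03, 7.04 and 7.38 at 4 hours and 6.02, 6.26, 5.57, 5.56 and 5.73 at 12 hours. At 36 hours Atp6v0d2 stood at 8.17, 7.63, 7.56, 7.57 and 8.12, and at 72 hours at 8.68, 9.01, 9.07, 8.90 and 8.97. The 72 h arrays of Atp6v0d2 lay above all others and the 12 h arrays below all others. It was higher at 36 hours than at 4 hours with a log2 difference of 0.73 (SE 0.14, limma adjusted p = 0.000382). Against sham livers the 36 h difference was 0.44 (limma adjusted p = 0.0243), and it did not pass on leaving out any 1 of 4 arrays, with limma adjusted p between 0.0633 and 0.0823. At 12 hours its level was that of the lower 11% of all probes.

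Of the other 4 members, Bnip3, a mitochondrial protein that marks mitochondria for autophagy, held the lowest adjusted p against sham livers at 36 hours. Bnip3 had log2 intensities of 11.51, 11.06, 11.18, 11.28 and 11.30 on the 5 sham arrays, 10.77, 10.23, 10.66, 10.72 and 10.70 at 4 hours and 9.28, 9.06, 8.94, 8.67 and 9.25 at 12 hours. At 36 hours Bnip3 stood at 9.54, 9.58, 9.58, 9.64 and 9.79, and at 72 hours at 9.87, 9.80, 9.96, 10.05 and 9.81. Its sham, 4 h, 12 h, 36 h and 72 h arrays formed 5 ranges with no overlap, in which 12 hours was the lowest and sham the highest. At 36 hours it was lower than in sham livers with a log2 difference of -1.64 (SE 0.11, limma adjusted p = 2.82e-11), and lower than at 4 hours with a log2 difference of -0.99 (SE 0.11, limma adjusted p = 1.28e-07). It had regained 38.6% of the 12 h difference at 72 hours. Bnip3 also holds an E-box, in capitals, at position -108 from its RefSeq start, in the promoter at chr7:138909457-138909756 on the minus strand of GRCm38.p6.
Bnip3: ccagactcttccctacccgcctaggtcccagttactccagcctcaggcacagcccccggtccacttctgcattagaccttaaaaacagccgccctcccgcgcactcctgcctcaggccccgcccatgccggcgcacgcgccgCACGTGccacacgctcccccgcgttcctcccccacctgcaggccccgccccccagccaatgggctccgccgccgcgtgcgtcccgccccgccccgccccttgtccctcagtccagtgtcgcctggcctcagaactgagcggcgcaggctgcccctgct

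Gins1, a subunit of the GINS complex that works with the replicative helicase, had its highest level at 36 hours. Gins1 had log2 intensities of 9.27, 9.01, 9.23, 9.17 and 9.27 on the 5 sham arrays, 8.86, 8.75, 8.80, 8.04 and 8.61 at 4 hours and 8.21, 8.16, 7.80, 7.76 and 7.89 at 12 hours. At 36 hours Gins1 stood at 10.79, 11.61, 11.50, 10.81 and 10.85, and at 72 hours at 10.34, 10.24, 9.87, 9.97 and 10.004. All 36 h arrays lay above all arrays of the other groups, and the 72 h arrays above all sham arrays. Gins1 was higher at 36 hours than at 4 hours with a log2 difference of 2.50 (SE 0.16, limma adjusted p = 1.45e-11), the largest rise of the 43 genes. A second Gins1 probe, brighter over all arrays, had a 12 h difference of -0.99 and so missed the threshold, with a rise of 2.38 at 36 hours over 4 hours (limma adjusted p = 6.11e-14). Rpain, which carries the single-strand binding protein RPA into the nucleus, was lower at 4 hours (-0.66, limma adjusted p = 0.00287) and at 36 hours (-0.64, limma adjusted p = 0.00131) than in sham livers. Colec11, a secreted collectin, was lower at 36 hours than at 4 hours with a log2 difference of -0.75 (SE 0.16, limma adjusted p = 0.000687).

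**Figure D4:**
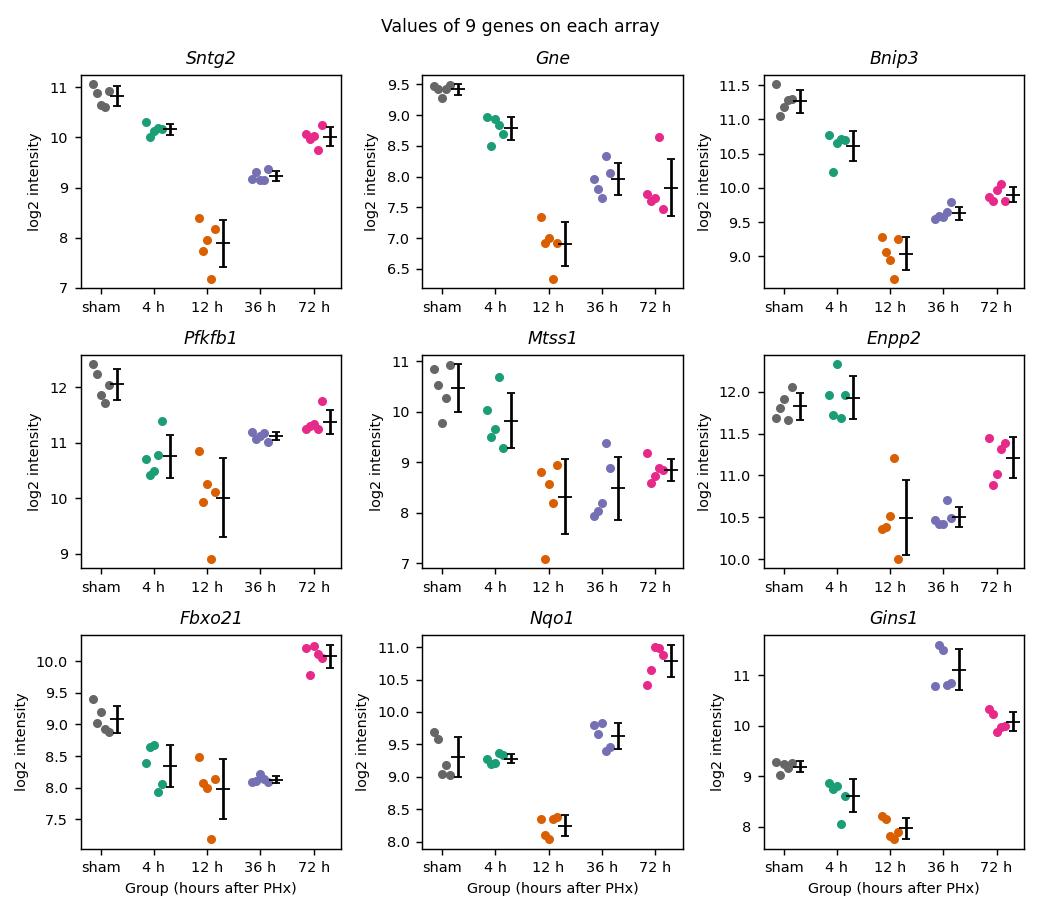
Log2 intensity (vertical axes) of 9 of the 43 genes on each of 25 arrays, by group in order of time; points are arrays and black marks give the mean with its SD (n = 5). Fbxo21, Nqo1 and Gins1 lie above the sham arrays at 72 hours, and the other 6 genes have means below sham there.

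By 72 hours 5 genes lay above the sham mean and 38 below it. All 5 arrays at 72 hours were above all 5 sham arrays for Aldh1b1 (difference 1.87), Atp6v0d2 (1.56), Nqo1 (1.49), Fbxo21 (0.99) and Gins1 (0.89). These 5 make 11.6% of the 43 genes, against 11% of all probes with every 72 h array above every sham array. All 5 were below all sham arrays for 27 genes, against 8.64% of all probes, at the lowest Mosc2 (-1.83), Aldh6a1 (-1.76) and Mtss1 (-1.62). The genes were chosen on the 12 h level set against sham and 72 h, so nothing is read from these shares. The study's clustering had placed Atp6v0d2, Gins1, Nqo1 and Aldh1b1 in its cluster 4, 32 of the others in cluster 2 and 7 in cluster 3. Its clusters after cluster 4 were not among the rows at hand, so no member could come from them. Nothing is read from this split.

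**Figure D5:**
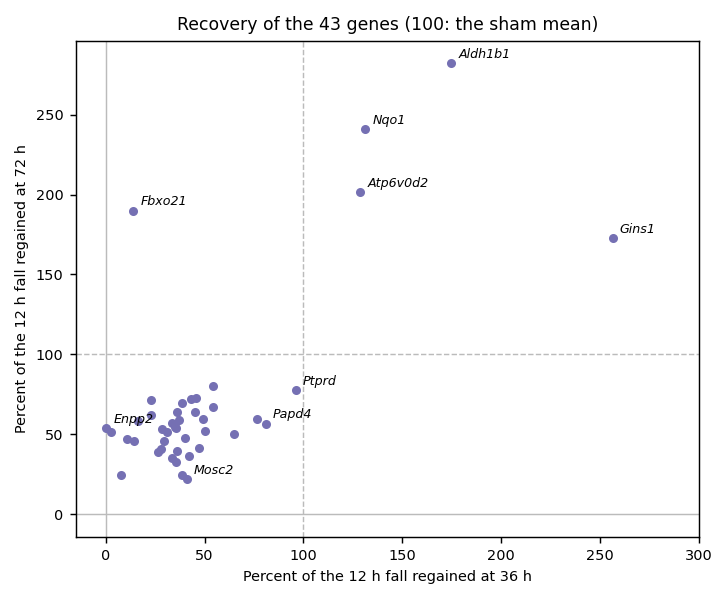
Percent of the 12 h difference from sham regained at 36 hours (horizontal axis) and at 72 hours (vertical axis) for each of the 43 genes, where 0 is the 12 h mean and 100 the sham mean. Both axes share the sham and 12 h means. Fbxo21 stands at 13.7% and 190%, Gins1 at 257% and 173%, and most other genes below 100% on both axes.

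In a list of 33 genes of sugar, amino acid and lipid metabolism, 11 of them members, 13 were lower than in sham livers at 4 hours, and 25 were lower and 6 higher at 36 hours, with a median 12 h difference of -0.60. Of all probes, 6.35% were lower and 6.12% higher at 4 hours, and 12.5% lower and 13.6% higher at 36 hours. In a list of 35 growth factor receptors and their signalling, 4 of them members, 20 were lower and 1 higher at 4 hours, and 19 lower and 7 higher at 36 hours. In a list of 25 mitochondrial proteins, 5 of them members, 13 were lower at 4 hours, and 19 lower and 4 higher at 36 hours. In a list of 42 genes of RNA splicing and processing, 2 of them members, 27 were lower at 4 hours and 34 at 36 hours, with 0 higher at either time by limma and 0 at an unadjusted p under 0.05. These lists came from the named genes that the study had picked on these arrays, so their counts are not independent evidence of a direction.

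Markers of the liver's cell types and clock genes also differed between 12 h and sham arrays. Only those named among the probes that the study had picked for change on these arrays could be counted. That choice favours a difference, so the values are not independent evidence of a shift in cell types or the clock. Of 12 hepatocyte markers, 9 had a named probe, and their summed intensity was 195128 to 215468 at 12 hours, against 262731 to 301114 in sham livers. It was 152629 to 186182 at 72 hours. Summed markers of sinusoidal endothelial cells (6 of 9 named) were 1337 to 1716 at 12 hours, against 2167 to 2498 in sham livers, and 2119 to 2345 at 72 hours. Those of Kupffer cells (3 of 6) were 594 to 672 at 12 hours, against 740.5 to 1039 in sham livers, and those of cholangiocytes (2 of 5) 932 to 1277, against 1469 to 1678. Stellate cell markers (4 of 6) stood at 4037 to 5563 at 12 hours, against 2275 to 2838 in sham livers, and Eln was the only one of the 4 with a higher mean at 12 hours. Leukocyte markers (3 of 6) overlapped, with 226 to 603 at 12 hours, against 347 to 416 in sham livers. At 72 hours the sums were 491 to 551 for Kupffer cells and 2049 to 2953 for cholangiocytes. They were 1444 to 1617 for stellate cells and 529 to 5735 for leukocytes. The clock genes Arntl and Cry1 were higher at 12 hours than in sham livers by 1.67 and 1.18 on the log2 scale, and Per3 had a difference of -0.86. The part of cell types and of the clock in the values of the 43 genes was not tested.

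Promoters were found in the RefSeq table of GRCm38.p6 for 32 of the 43 genes, with 45 promoters of 300 bases among 32851 in the table. The E-box CACGTG, searched on both strands, was in 6.67% of them and in 7.15% of all promoters. The GC box GGGCGG was in 57.8% and in 35.7% of all, the CCAAT box in 42.2% and 37.4%, the TATA box TATAAA in 13.3% and 13.6%, and GGTCA, a core of nuclear receptor sites, in 46.7% and 40.5%. TGACGTCA, TTGCGCAA and CAAAGTCCA were in none of the 45. These are counts of letters in a window, and promoters of 1 gene can overlap.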

How the data were processed

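Liver RNA was measured on 25 single-colour (Cy3) arrays, 1 per mouse. The authors deposited intensities on a linear scale, 1 for each probe and liver, already brought to nearly equal medians. The methods name the vsn package, but the deposited intensity values are not on that scale, and no source used says how they were scaled. Of 35981 probes, 2 were blank on every array. The other 35979 were taken to log2 with no further normalization, background correction or filter. Group means were estimated in 1 fit of the 25 arrays (limma 3.58.1, lmFit then eBayes, under R 4.3.3), with Benjamini-Hochberg adjustment over all probes. Precision is limited by having 5 arrays per group. Python 3.11.15 with pandas 2.3.3 and matplotlib 3.10.9 served for the counts and plots.

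Names came from the rows at hand of the study's transcript list, complete for its clusters 1 to 3 and in part for cluster 4. The clusters after cluster 4 were absent from these rows, so genes with a 12 h trough there are not covered. All 43 genes matched a current symbol by Entrez ID, and 7 symbols differed. The members, gene lists and tests were chosen with earlier results of these data known. Named genes were the members with the lowest or largest differences in each comparison, those above sham at 72 hours, up to 5 members per gene list and the genes next to each threshold; the other members were added so that each is accounted for, after their values were seen. Of the 43, 1 member stays in the counts and is not reported here by name. Promoters were read from the RefSeq table of GRCm38.p6. The fit was tested on simulated data. Alternatives changed the normalization, background, dim probes, probe choice, variance model, array weights, groups fitted, test, replicate number and single arrays.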

Additional observations from a re-analysis of the deposited data

Results flagged for a closer look

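Within single groups of 5 arrays, 12 of 220 groups examined (5.45%), those of the 43 genes and of the mean over them, held 1 array far from the other 4 by Dixon's criterion. Chance alone gives about 1 in 20. At 72 hours replicate 4 was high for Gne (8.64) and Aldh6a1 (10.21), replicate 5 for Pfkfb1 (11.76) and replicate 1 for Kcnn2 (10.91). At 36 hours replicate 4 was high for Enpp2 (10.70), and replicate 5 was low for Sult1d1 (12.86) and replicate 3 for Sgms1 (6.60). At 12 hours replicate 4 was low for Kcnn2 (8.64) and replicate 1 was high for Sos1 (6.98). At 4 hours replicate 2 was low for Bnip3 (10.23) and replicate 1 was high for Fxyd1 (12.90), and in sham livers replicate 3 was low for Cyb5r3 (13.39). All of these are log2 intensities.

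The PHx values at 36 and 4 hours were set against each other directly. Every sham liver was taken at 4 hours, so in this difference PHx cannot be told apart from the hours since surgery. The difference passed for 21 genes by limma. The 36 h value was lower than the 4 h value for Enpp2 (log2 difference -1.43), Mtss1 (-1.34), A530050D06Rik (-1.03), Bnip3 (-0.99), Sntg2 (-0.93), Gne (-0.82), Pcca (-0.77), Colec11 (-0.75), A930001N09Rik (-0.75), Sgms1 (-0.71), Klhl24 (-0.65), Bche (-0.64), BC024659 (-0.60), Fxyd1 (-0.54), Kcnn2 (-0.48), Klhl21 (-0.41) and Hexa (-0.39). The 36 h value was higher than the 4 h value for Gins1 (2.50), Atp6v0d2 (0.73), Aldh1b1 (0.50) and Ptprd (0.43).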

How the results depend on the processing

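The set held 43 genes, 39 after quantile normalization or centring of arrays on their medians, 41 after normexp correction or when the probe was chosen before the thresholds, and 34 with group medians. Leaving out 1 array at a time gave 35 to 48 genes, with 35 without replicate 4 and 48 without replicate 1 at 12 hours, and 38 without replicate 4 at 72 hours. Over the same omissions 26 to 32 genes were lower at 4 hours than in sham livers and 0 higher, 34 to 37 were lower and 2 to 4 higher at 36 hours than in sham livers, and 15 to 18 were lower and 3 to 5 higher at 36 hours than at 4 hours. The methods' t-test with Benjamini-Hochberg adjustment called 20 genes lower at 4 hours in place of 31, and 34 unadjusted; the cause was not tested. The call for Pcca at 4 hours was lost on leaving out any 1 of 16 arrays (adjusted p between 0.0508 and 0.119 from limma).

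Arrays with the same replicate number shared no deviation on average: their deviations had a mean correlation of -0.006 over 50 pairs, against 0.001 for different numbers. Single pairs ran between -0.35 and 0.46 for the same number and between -0.40 and 0.34 for different numbers. A mean near 0 cannot show that no arrays were paired. With the replicate number as a block, 31 genes were lower and 0 higher at 4 hours and 34 lower and 3 higher at 36 hours than in sham livers, and 18 were lower and 4 higher at 36 hours than at 4 hours.

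Among the 42 genes reported by name, signs turned only for differences that passed in no such setting. Most of these were near 0, but the 36 h minus 4 h difference of Aldh6a1 was -0.22 with all arrays. Between 36 and 4 hours the values were -0.0103 for Papd4 after quantile normalization and -0.00723 for Rpain with array weights, which also gave 0.00911 for Ptprd between 36 hours and sham. With 1 array left out, the 36 h minus 4 h value ran between -0.540 and 0.0553 for Aldh6a1, -0.00229 and 0.258 for Larp5, -0.0431 and 0.165 for Papd4, -0.0698 and 0.111 for Rpain and -0.147 and 0.0424 for Zmym2. The 36 h minus sham value of Ptprd ran between -0.179 and 0.0442, and the 4 h minus sham values between -0.0887 and 0.0761 for Nqo1 and -0.198 and 0.0253 for Sgms1. Of the members, 3 had 12 h levels among the dimmest 30% of probes.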
